A study of Mus musculus with 9 samples.

Results

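Homologous recombination repairs a broken chromosome by copying the intact sister, and 9 of its genes were followed here by gene name: Rbbp8, Exo1, Brca1, Bard1, Palb2, Brca2, Rad52, Rad54l and Xrcc2. They are 9 of the 21951 genes in the count table, and all 9 passed the filter on low counts that left 11295 genes for testing. The cells were BV2, a murine line of microglia (brain macrophages) that is immortalised and labelled wild type. The first of 3 groups was treated for 30 min with 10 µM of 5α-androst-3β, 5α, 6β-triol, a man-made steroid, and then irradiated with X-rays at 10 Gy. The second had vehicle (HP-β-CD, a cyclodextrin, at 20%) for 30 min and the same dose, and the third, the control, had vehicle and no irradiation. Each group held 3 libraries. For replicates 2 and 3 of the triol group the treatment labels put 1 hydroxyl elsewhere than the titles do, and the titles were followed. The triol group has no labelled vehicle, no group had triol without irradiation, and when RNA was taken after irradiation was not found in the labels. Nothing states that the replicates of this single line are separate cultures, and p-values cover the spread between libraries alone, which may be technical.

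In this pathway a double-strand break is first trimmed to single-stranded tails. CtIP, the product of Rbbp8, starts the trimming together with the MRE11 nuclease complex, and the exonuclease EXO1 extends it. BRCA1 and BARD1 form a ubiquitin ligase that acts at the break, PALB2 links BRCA1 to BRCA2, and BRCA2 prepares the tail, which then invades the sister chromatid. RAD52 anneals single strands and has a backup role in mammals, RAD54L is a motor protein that assists strand invasion, and XRCC2 belongs to a complex that assists strand exchange. The pathway works in S and G2 phase, when a sister is present, and many of its genes are transcribed most in those phases.

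Promoter sequence was found in RefSeq (GRCm38.p6) for 6 of the 9 genes, and for Exo1, Xrcc2 and Rbbp8 none was used. The 250 bases before the RefSeq start of Brca1, Bard1 and Brca2 are shown, since these genes form the core of the pathway, differ in the cell cycle motifs they hold, and gave no call in any of the comparisons below. Capitals mark matches, on either strand, to the E2F words TTTCCCGC, TTTCGCGC, TTTGCCGC and TTTGGCGC, the CHR words TTTGAA and TTCGAA, the CCAAT box, and a core of the interferon-stimulated response element (ISRE), which is GAAA repeated after any 2 bases.
Brca1: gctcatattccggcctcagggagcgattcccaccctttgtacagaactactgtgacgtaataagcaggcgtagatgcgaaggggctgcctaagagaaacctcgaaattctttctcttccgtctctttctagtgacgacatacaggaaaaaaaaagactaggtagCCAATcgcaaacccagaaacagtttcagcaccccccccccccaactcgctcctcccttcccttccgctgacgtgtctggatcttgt
Bard1: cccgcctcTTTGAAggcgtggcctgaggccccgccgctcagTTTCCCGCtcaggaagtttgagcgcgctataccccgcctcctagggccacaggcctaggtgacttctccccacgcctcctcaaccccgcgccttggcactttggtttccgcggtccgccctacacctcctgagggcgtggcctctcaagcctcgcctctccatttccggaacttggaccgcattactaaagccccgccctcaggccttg
Brca2: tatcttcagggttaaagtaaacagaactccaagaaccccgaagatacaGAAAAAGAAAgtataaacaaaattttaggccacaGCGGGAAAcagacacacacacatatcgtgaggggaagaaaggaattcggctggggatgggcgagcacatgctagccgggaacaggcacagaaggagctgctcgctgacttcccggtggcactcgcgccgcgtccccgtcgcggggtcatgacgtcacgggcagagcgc

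The Brca1 window lies at chr11:101551956-101552205 on the minus strand, the Bard1 window at chr1:71102973-71103222 on the minus strand, and the Brca2 window at chr5:150522371-150522620 on the plus strand. The RefSeq start of Bard1 lies downstream of the outermost start in GENCODE, so most of its window falls inside the gene's span as given below. An E2F word stood in 2 of the 6 windows, Bard1 and Brca2, and in 1.86% of all 32851 mouse promoters of that length. The CCAAT box stood in the windows of Brca1 and Rad54l and in 33.8% of all promoters. A CHR word stood in the Bard1 window alone (17.1% of all promoters) and the ISRE core in the Brca2 window alone (2.98%). Matches in 1 window do not overlap one another. They describe letters and no measured binding.

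Exo1 and Xrcc2 rose in irradiated cells, by 46.2% and 36.2% relative to control cells, and Rbbp8 rose by 9.57%. Brca1, Brca2, Bard1, Palb2, Rad52 and Rad54l did not pass the test, and their fitted levels lay within 1.12-fold of control. The test was the quasi-likelihood F test of edgeR over all 11295 genes, two-sided, with Benjamini-Hochberg adjustment and a threshold of 0.05. It called 3 of the 9 genes (33.3%), all higher, where 44.3% of all tested genes were called in either direction and 22.1% were called higher. Levels are given as CPM after TMM scaling, that is, counts relative to the effective library size, and means carry their SD over 3 libraries.

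The 2 members that act in end resection were both called higher, where 22.1% of all tested genes were. Of 9 further genes listed for this step, given below, 2 were called higher. Exo1, on chromosome 1 from 175880581 to 175913489, had 39.8, 39.1 and 42.0 CPM in triol-treated irradiated libraries, 41.0, 41.6 and 42.5 CPM in irradiated libraries and 25.4, 28.6 and 31.3 CPM in control libraries. Each of the 6 irradiated libraries, with or without triol, lay above all control libraries, and the control libraries were the most spread. The log2 fold change of irradiated against control cells was 0.55 (SE 0.07, 95% interval 0.41 to 0.69, edgeR adjusted p = 1.2e-08). Among all tested genes 874 had a larger log2 fold change. The call for Exo1 held under every alternative that was run, with log2 fold changes from 0.47 to 0.61.

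Rbbp8, on chromosome 18 from 11633276 to 11745221, had 61.9, 62.3 and 60.6 CPM in triol-treated irradiated libraries, 61.5, 56.9 and 62.0 CPM in irradiated libraries and 53.7, 56.3 and 54.6 CPM in control libraries. The groups did not overlap, but irradiated replicate 2 lay close to the highest control library. The log2 fold change of irradiated against control cells was 0.13 (SE 0.05, interval 0.03 to 0.24, edgeR adjusted p = 0.039). This call was lost with DESeq2 (adjusted p = 0.074), without a filter on low counts (0.087), and in edgeR without control replicate 1 (0.13), control replicate 3 (0.089), irradiated replicate 1 (0.14) or irradiated replicate 3 (0.15). It was also lost without triol replicate 1 (0.050) or replicate 2 (0.057), which lie in neither of the groups compared. Those libraries enter through the joint filter, the TMM scaling and the shared estimate of the spread.

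The ubiquitin ligase pair and its link to BRCA2 gave no call. Brca1, on chromosome 11 from 101488764 to 101551955, had 105.4, 103.5 and 100.7 CPM in triol-treated irradiated libraries, 101.6, 104.6 and 111.2 CPM in irradiated libraries and 101.1, 105.6 and 103.8 CPM in control libraries. The 3 groups overlapped throughout. The log2 fold change of irradiated against control cells was 0.03 with an interval of −0.06 to 0.12 (edgeR adjusted p = 0.58), so a rise beyond 1.08-fold lies outside the interval. Brca1 had 1400 to 1918 reads per library, and its interval was the narrowest of the 9 genes.

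Bard1, the partner of Brca1, on chromosome 1 from 71027498 to 71103146, had 28.4, 27.0 and 29.8 CPM in triol-treated irradiated libraries, 30.9, 28.1 and 29.4 CPM in irradiated libraries and 26.5, 24.0 and 28.8 CPM in control libraries. Control replicate 3 lay inside the irradiated range. The log2 fold change of irradiated against control cells was 0.16 (SE 0.07, interval 0.01 to 0.31), which missed the threshold (edgeR adjusted p = 0.076). It passed with upper quartile scaling (0.035) and without control replicate 3 (0.023). Per length of exon, the level of Bard1 relative to that of Brca1 was 0.415 ± 0.0272 in triol-treated irradiated, 0.421 ± 0.0327 in irradiated and 0.385 ± 0.0389 in control libraries (SD, n = 3 each). The replicates of the 3 groups overlapped.

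Palb2, on chromosome 7 from 122107262 to 122132985, had 16.9, 14.5 and 15.4 CPM in triol-treated irradiated libraries, 15.7, 16.3 and 16.01 CPM in irradiated libraries and 16.6, 16.4 and 17.3 CPM in control libraries. The irradiated libraries all lay below the control libraries, by a narrow gap, and the test did not pass (log2 fold change −0.07, interval −0.25 to 0.11, edgeR adjusted p = 0.56). Brca2, on chromosome 5 from 150522630 to 150570329, had 54.9, 55.2 and 51.9 CPM in triol-treated irradiated libraries, 56.8, 56.8 and 59.9 CPM in irradiated libraries and 52.8, 57.4 and 61.5 CPM in control libraries. The control libraries spanned the irradiated ones on both sides (log2 fold change 0.01, interval −0.10 to 0.13, edgeR adjusted p = 0.87).

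**Figure D1:**
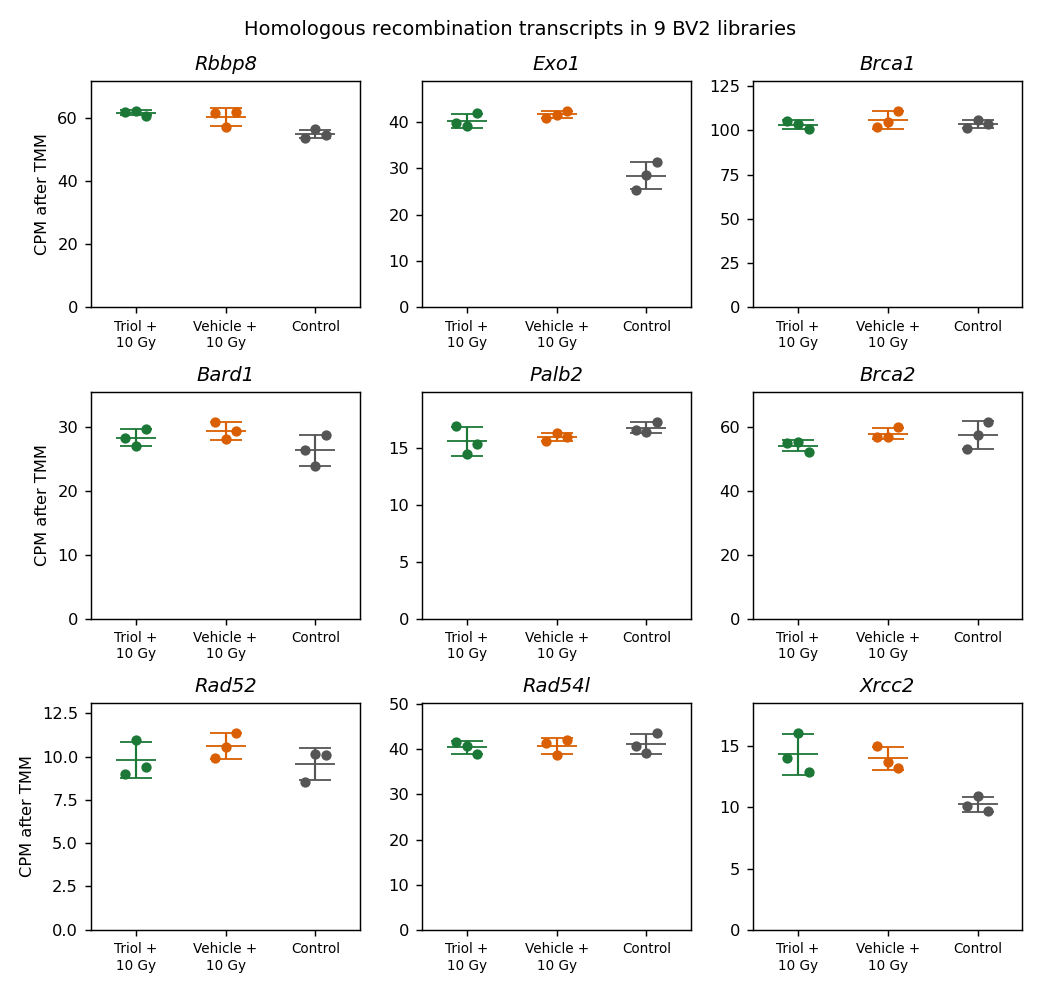
Level of each of the 9 genes in every library, in CPM after TMM (vertical axes start at 0), with the mean and SD of 3 libraries per group. Exo1 and Xrcc2 lie higher in all 6 irradiated libraries than in the 3 control libraries, while Brca1, Rad54l and Rad52 overlap across the groups.

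Among the 3 members that act at strand annealing and invasion, 1 was called higher, where 22.1% of all tested genes were. Xrcc2, on chromosome 5 from 25689812 to 25705825, had 14.0, 16.1 and 12.9 CPM in triol-treated irradiated libraries, 15.0, 13.7 and 13.3 CPM in irradiated libraries and 10.1, 10.9 and 9.71 CPM in control libraries. The lowest irradiated library was above the highest control library. Its log2 fold change in irradiated against control cells was 0.45 (SE 0.11, interval 0.23 to 0.66, edgeR adjusted p = 0.00064), and 1079 tested genes had a larger one. The call for Xrcc2 held under every alternative run, with log2 fold changes from 0.39 to 0.50, although its reads numbered only 140 to 191 per control library and 192 to 220 per irradiated library.

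Rad54l, on chromosome 4 from 116094264 to 116123690, had 41.5, 40.8 and 38.9 CPM in triol-treated irradiated libraries, 41.3, 38.8 and 42.1 CPM in irradiated libraries and 40.7, 39.3 and 43.7 CPM in control libraries. The groups overlapped, and the fitted difference of irradiated from control cells was −0.02 on the log2 scale (interval −0.14 to 0.11, edgeR adjusted p = 0.87), or 0.01 with upper quartile scaling. Of the exonic bases of Rad54l, 15.4% lie within Lrrc41 on the opposite strand, and whether the counting used strand was not found in the labels. Rad52, on chromosome 6 from 119902698 to 119922828, had 9.01, 11.0 and 9.40 CPM in triol-treated irradiated libraries, 9.92, 10.6 and 11.4 CPM in irradiated libraries and 8.52, 10.1 and 10.1 CPM in control libraries. It was among the lowest of the 9 genes and had the widest interval, −0.09 to 0.38 around a log2 fold change of 0.14 (edgeR adjusted p = 0.33), so that a rise of up to 1.30-fold lies inside it. Rad52 had 118 to 193 reads per library.

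Libraries of irradiated and control cells did not overlap for 4 of the 9 genes, Exo1, Xrcc2 and Rbbp8 higher and Palb2 lower in irradiated cells, where 50.7% of all tested genes were apart in this way, 25.2% higher and 25.5% lower. The median log2 fold change of the 9 genes was 0.13, which is the value of Rbbp8, against 0.01 over all tested genes. Fitted changes ran from 46.2% for Exo1 to −4.64% for Palb2 in the same libraries. In triol-treated irradiated against control cells the median of the 9 genes was 0.025, against 0.0038 over all tested genes.

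Triol given before irradiation changed none of the 9 genes by the test. The number called was 0 of 9, with 0 at an unadjusted p under 0.05, and limma-voom called 0 as well; DESeq2 also called 0, but gave an adjusted p for 1 of the 9. Over all tested genes 0.106% were called in edgeR, and 7.66% had an unadjusted p under 0.05. Adjusted p-values for the 9 genes ran from 0.71 for Brca2 to 0.98 for Rad54l. Triol-treated and irradiated libraries overlapped for 8 of the 9 genes. The exception was Brca2, which was lower in all 3 triol-treated libraries, with a mean of 54.0 ± 1.81 CPM in triol-treated irradiated against 57.8 ± 1.77 CPM in irradiated cells (SD, n = 3 each). Its log2 fold change was −0.10 (SE 0.06, interval −0.21 to 0.01), and the edgeR adjusted p was 0.71. Groups were apart for 13.2% of all tested genes, with 5.88% lower in triol-treated cells.

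For the 2 genes with the largest change by irradiation, the triol-treated and irradiated libraries overlapped. Exo1 averaged 40.3 ± 1.52 CPM in triol-treated irradiated and 41.7 ± 0.760 CPM in irradiated cells, a log2 fold change of −0.05 (interval −0.18 to 0.08). Xrcc2 averaged 14.3 ± 1.64 CPM in triol-treated irradiated and 14.0 ± 0.926 CPM in irradiated cells, with a log2 fold change of 0.03 (interval −0.17 to 0.23). A fall of Exo1 to the control level would lie outside that interval. For Rad52 the interval was widest, −0.34 to 0.11.

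Against control cells, the triol-treated irradiated cells gave calls for the same 3 genes, where 43.3% of all tested genes were called and 21.5% called higher. Their libraries did not overlap with the control libraries, which held for 51.1% of all tested genes (25.5% higher). This comparison shares its control libraries with that of irradiated against control cells and its triol-treated libraries with the one just given. The log2 fold changes were 0.50 for Exo1 (SE 0.07, edgeR adjusted p = 6.7e-08), 0.48 for Xrcc2 (SE 0.10, adjusted p = 0.00019) and 0.16 for Rbbp8 (SE 0.05, adjusted p = 0.0084). The call for Rbbp8 was lost without control replicate 1 alone (adjusted p = 0.050). For Brca2 the fitted difference was −0.09 on the log2 scale (interval −0.20 to 0.03, edgeR adjusted p = 0.21), and it was called lower without control replicate 1 (−0.15, adjusted p = 0.047). The other 5 genes lay between −0.11 for Palb2 and 0.11 for Bard1, with adjusted p of 0.24 to 0.93.

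**Figure D2:**
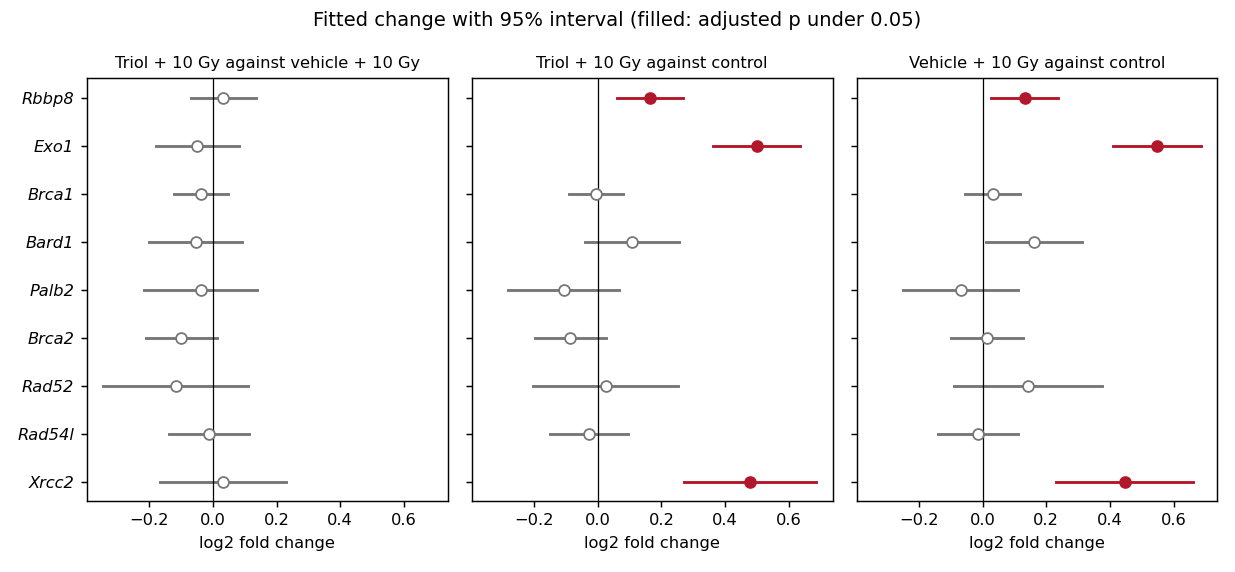
Fitted log2 fold change of each gene (points) with its 95% interval (lines) in the 3 comparisons, filled where the adjusted p was under 0.05. Calls stand at Exo1, Xrcc2 and Rbbp8 in both comparisons with control cells, and none in triol-treated against vehicle-treated irradiated cells.

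Set per length of exon, which allows genes to be compared, Brca1 was the most abundant of the 9 in all groups. Its level was 12.1 ± 0.277 CPM per kb in triol-treated irradiated, 12.4 ± 0.572 in irradiated and 12.1 ± 0.270 in control cells (SD, n = 3 each). In control cells Rad54l (5.35 ± 0.289), Bard1 (4.67 ± 0.425), Rbbp8 (4.38 ± 0.105) and Brca2 (4.20 ± 0.318) followed. Bard1 and Rbbp8, and Rbbp8 and Brca2, differed by less than their spread. Exo1 stood below Brca2 in control cells, at 3.38 ± 0.352 CPM per kb, and above it in irradiated cells, at 4.95 ± 0.0902 against 4.24 ± 0.130. Xrcc2 stood below Palb2 in control cells (1.97 ± 0.120 against 2.29 ± 0.0650) and above it in irradiated cells (2.69 ± 0.178 against 2.18 ± 0.0469). Rad52 was lowest in all groups, at 1.70 ± 0.181 in triol-treated irradiated, 1.85 ± 0.127 in irradiated and 1.67 ± 0.161 in control cells. Lengths are those of all annotated exons merged, so a gene with rare long isoforms is placed too low.

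**Figure D3:**
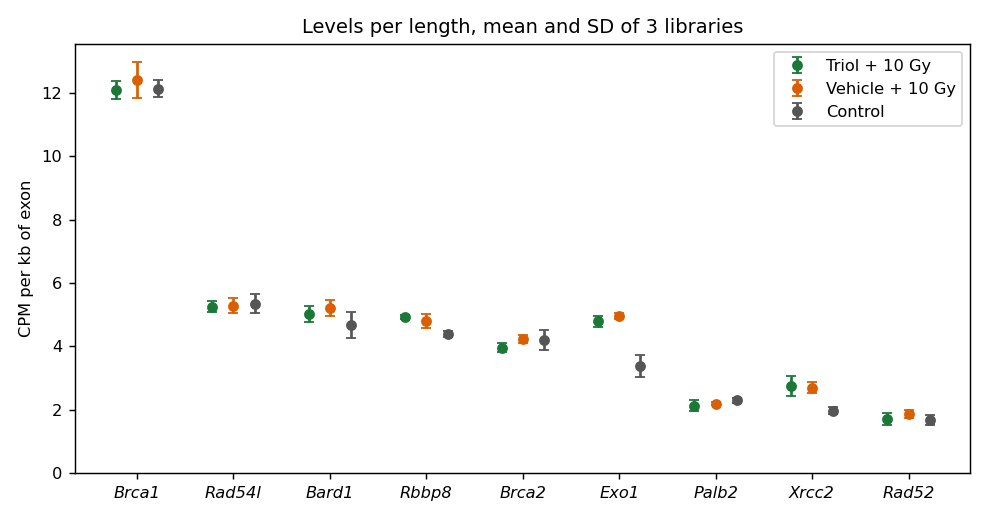
Level of the 9 genes per kb of merged exon (mean and SD of 3 libraries per group), ordered by the control level. Brca1 stands above 11 CPM per kb in each group, the others below 6, and Exo1 and Xrcc2 change place with their neighbours in irradiated cells.

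Beyond the 9 genes, 42 other genes of the pathway were listed by role, and all 42 were tested. In irradiated against control cells 9 of them rose and 4 fell (22.1% and 22.2% of all tested genes were called higher and lower), with a median log2 fold change of 0.05. Among 9 further genes of resection and of RPA, the complex that coats the single-stranded tail, 2 rose, Rpa2 (log2 fold change 0.27, SE 0.06) and Rpa1 (0.13, SE 0.04), both RPA subunits. Of 7 genes of BRCA1 complexes, Brcc3, a deubiquitinase, rose (0.21, SE 0.06), and Babam1 (−0.18, SE 0.04), a subunit of the same complex, and Topbp1 (−0.11, SE 0.04), a scaffold of the checkpoint, fell.

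In strand exchange 1 of 11 genes rose and 1 fell. These were Rfwd3, a ubiquitin ligase (log2 fold change 0.22, SE 0.03), and Rad51d, a member of the complex that holds XRCC2, which fell to 17.4 ± 1.13 CPM in irradiated cells against 21.0 ± 0.831 CPM in control cells (SD, n = 3 each; −0.27, SE 0.08, edgeR adjusted p = 0.0085). Xrcc2 and Rad51d therefore passed the test in opposite directions. Rad51c, of the same complex, had a log2 fold change of −0.32 in irradiated against control cells that did not pass (edgeR adjusted p = 0.079), although it passed without irradiated replicate 3 (−0.47, adjusted p = 0.021). Over all alternatives its adjusted p in irradiated against control cells ran from 0.021 to 0.25. In triol-treated irradiated against control cells Rad51c fell by 0.37 on the log2 scale (edgeR adjusted p = 0.034). Alternatives were not examined for that call. Rad51c was low, at 5.34 ± 0.533 CPM in triol-treated irradiated, 5.51 ± 0.947 in irradiated and 6.91 ± 0.459 in control cells (SD, n = 3 each).

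Among 7 helicases and proteins that hold recombination back, 2 rose and 1 fell. Helq rose by 0.34 on the log2 scale (SE 0.08) and Fignl1 by 0.14 (SE 0.04), and Fbh1, a helicase, fell by 0.24 (SE 0.05). Of 8 genes that take apart joined DNA, 3 rose, the resolvase gene Gen1 (0.26, SE 0.06), Rmi2 (0.53, SE 0.18), which had only 5.54 ± 0.538 CPM in irradiated and 3.86 ± 0.848 CPM in control cells, and Top3a (0.16, edgeR adjusted p = 0.040). The calls of Rpa1, Topbp1, Fignl1, Rmi2 and Top3a were each lost under at least 1 alternative, and none of these genes changed sign. In triol-treated against vehicle-treated irradiated cells 0 of the 42 genes were called, with 1, Mcm9, at an unadjusted p under 0.05. Against control cells, 10 rose and 6 fell in triol-treated irradiated cells, where 21.5% and 21.7% of all tested genes were called higher and lower. Those that rose numbered 6 without control replicate 2 or without triol replicate 2.

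Most listed mitotic genes and some replication genes also rose in the irradiated libraries. Of 18 mitotic genes 15 rose and 1 fell in irradiated against control cells, where 22.1% of all tested genes were called higher and 22.2% lower. The gene that fell was Mki67, with 925 to 982 CPM in irradiated and 985 to 1046 CPM in control libraries. The median log2 fold change of the 18 genes was 0.19, and Ccnb1, the main mitotic cyclin, had the lowest p and the largest change (0.57, SE 0.04). The summed level of the 18 genes was 4676 to 4848 RPM (counts relative to the total count, without TMM) in triol-treated irradiated, 4788 to 5016 in irradiated and 4110 to 4486 in control libraries. Against the same shares, of 20 genes of G1/S and DNA replication 8 rose and 2 fell (1 with DESeq2, limma-voom or upper quartile scaling), with a median of 0.08, and a summed level of 3049 to 3142 RPM in triol-treated irradiated, 3111 to 3190 in irradiated and 2800 to 2943 in control libraries. More cells in a phase and more RNA per cell cannot be told apart in bulk RNA, and the part of the cell cycle in the changes of Exo1 and Xrcc2 was not tested. Rad54l, Brca1 and Brca2 gave no call in those libraries.

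**Figure D4:**
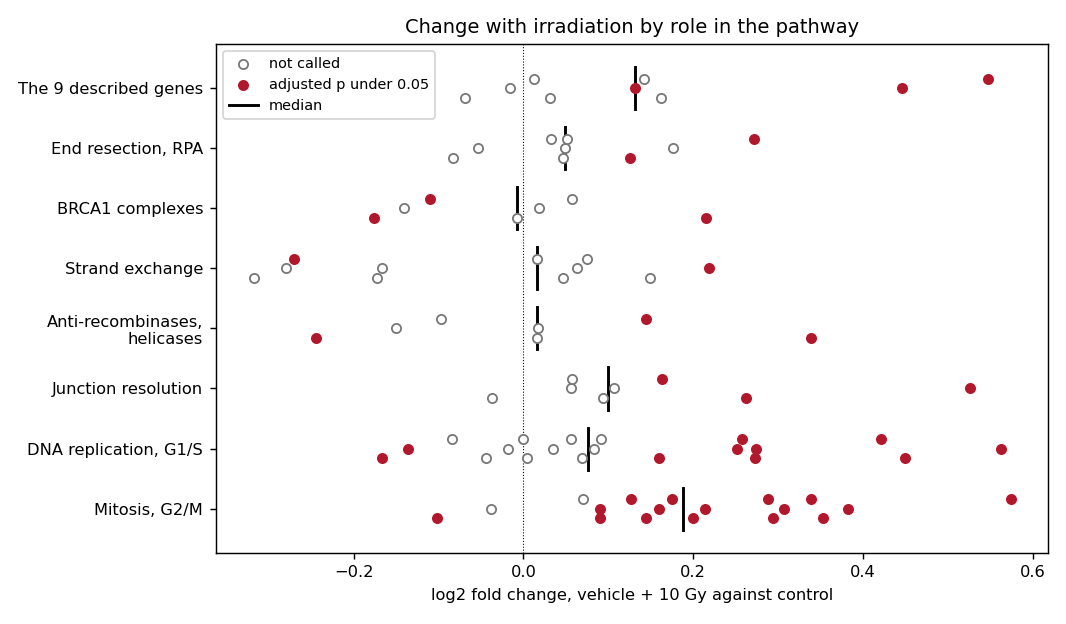
Log2 fold change of irradiated against control cells for each gene of the pathway, by role, and for genes of replication and mitosis. Filled points passed the test (adjusted p under 0.05) and vertical bars are medians, which lie at 0.13 for the 9 genes and at 0.19 for the mitotic genes.

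The genes with the pattern most like that of the 3 called members were found by the root mean square difference of log2 CPM, centred per gene, over all 9 libraries. For Exo1 the nearest of all tested genes was Ccnb1 (0.0531), followed by Tph2 (0.0541) and Rhd (0.0546). For Xrcc2 they were Mast1 (0.0604), Ogfr (0.0674) and Ddit3 (0.0696). For Rbbp8 they were Capza2 (0.0243), Gspt1 (0.0283) and Stat3 (0.0283). Tph2 and Mast1 had means under 6 CPM in all groups.

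Total counts were 17230866 to 18944051 in triol-treated irradiated, 13879062 to 15192203 in irradiated and 14118475 to 17705424 in control libraries. All 10 listed microglial markers were tested, and 7 fell in irradiated against control cells, where 22.2% of all tested genes were called lower. The summed level of the 10 markers was 1249 to 1291 RPM in triol-treated irradiated, 1251 to 1283 in irradiated and 1656 to 1706 in control libraries. Summed markers of astrocytes, neurons and oligodendrocytes stayed under 8 RPM for each list in every library, and Aqp4 and Olig2 were at 0 in all. The neuron sum, of 5 genes, was 2.46 to 3.02 RPM in triol-treated irradiated, 1.22 to 2.14 in irradiated and 0.0643 to 0.678 in control libraries, and Rbfox3, Syt1 and Snap25 were at 0 in irradiated libraries. The astrocyte sum, of 5 genes, was 1.51 to 2.06 RPM in triol-treated irradiated, 1.97 to 2.21 in irradiated and 0.321 to 0.850 in control libraries. The 1 tested gene of each list rose in irradiated against control cells, Tubb3 with 1.70 ± 0.479 CPM in irradiated and 0.0863 ± 0.0762 in control cells, and Slc1a2 with 1.54 ± 0.352 CPM in irradiated and 0.499 ± 0.231 in control cells (SD, n = 3 each; edgeR adjusted p = 5.9e-08 and 0.00061). Both passed the low count filter through the irradiated libraries, with or without triol, where they are high. That they were the genes tested, and rose, therefore says nothing about the rest of each list. For a list of 7 hepatocyte genes the sum was 7.44 to 8.41 RPM in triol-treated irradiated, 0.329 to 1.86 in irradiated and 0.283 to 2.09 in control libraries. All 3 hepatocyte genes that were tested were called higher in triol-treated against vehicle-treated irradiated cells (median log2 fold change 4.35). In that comparison 0.106% of all tested genes were called in either direction. The low count filter kept these 3 genes through the triol-treated libraries, where they are high, and dropped the rest of the list. The number called therefore cannot be set against that share. The part of these markers in the results was not tested.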

How the data were processed

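The deposited values are whole-number read counts per gene, one column for each of 9 libraries, which the authors left unscaled. NEBNext Ultra libraries were made from Trizol-extracted RNA, per the labels' protocols. The submitters' processing notes list fastp 0.18.0, FastQC, STAR 2.7.1a, Subread 1.6.3 (featureCounts) and GRCm38. Neither the annotation release nor the strand setting was found there. All 21951 identifiers with their symbols matched GENCODE M21, the source of coordinates, merged exon lengths and overlaps.

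Titles gave groups and replicate numbers. After filterByExpr, 1 robust quasi-likelihood fit (edgeR 4.0.16, R 4.3.3, TMM) covered all libraries, with 6 residual degrees of freedom. SE is the absolute log2 fold change divided by the square root of F. The 95% interval uses a t distribution with the total degrees of freedom of the fit. This total adds to the residual ones those gained by sharing the estimate of the spread across genes. Replicates differed by more than counting noise, so none was merged. The test was checked on simulated counts. Alternatives were median-of-ratios and upper quartile scaling, DESeq2 1.42.0, limma-voom (limma 3.58.1), no filter, the compared groups alone, a replicate block, and leaving out each library.

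All members are named. From each other list the rule names the gene with the lowest p and that with the largest change in irradiated against control cells, and any regulator. Rpa1, Topbp1, Rad51d, Fignl1, Top3a, Mcm9, Mki67, Xrcc6 and Dclre1c fell outside that rule and were picked after seeing their values. The members and lists were chosen with earlier results of these data known.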

Additional observations from a re-analysis of the deposited data

How the results depend on the processing

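Over 17 fits, the calls of Exo1 and Xrcc2 held in both comparisons with control cells, and 0 of the 9 genes was called in triol-treated against vehicle-treated irradiated cells, where DESeq2 gave no adjusted p for 8 of them. In irradiated against control cells 3 members were called, 2 to 3 on leaving out a library and 4 with upper quartile scaling. In triol-treated irradiated against control cells 0 to 1 was called lower. Over all genes, triol called 12, against 19 with DESeq2, 36 without a filter, 22 with the 2 groups alone and 6 to 19 on leaving out a library.

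Some fitted values that were not called, all near 0, changed sign with the scaling or the library. With upper quartile scaling the log2 fold change became 0.014 for Rad54l in irradiated against control cells and 0.015 for Brca1 in triol-treated irradiated against control cells. On leaving out a library, irradiated against control values ran from −0.0077 to 0.056 for Brca1, −0.042 to 0.060 for Brca2 and −0.053 to 0.023 for Rad54l. Triol-treated against vehicle-treated irradiated values ran from −0.069 to 0.00040 for Brca1, −0.10 to 0.0100 for Palb2, −0.048 to 0.012 for Rad54l, −0.061 to 0.10 for Xrcc2 and −0.0069 to 0.055 for Rbbp8. Triol-treated irradiated against control values ran from −0.030 to 0.0049 for Brca1, −0.070 to 0.071 for Rad52 and −0.069 to 0.0059 for Rad54l. The cause was not tested.

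Libraries with the same replicate number did not deviate together (correlations of −0.05 to 0.04), so no shared effect of the number was visible. Such correlations cannot show whether libraries of the same number were handled together. With the replicate block, 3, 0 and 3 members were called, the same as without it, and triol called 22 genes over all.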

Other observations

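The listed regulators of cell cycle genes moved in both directions. Of 15 tested, 4 rose and 4 fell in irradiated against control cells (22.1% of all tested genes were called higher and 22.2% lower). Those that rose were Mybl2, an activator of S and G2 phase genes, with 217 ± 7.14 CPM in irradiated and 172 ± 1.85 CPM in control cells (SD, n = 3 each; log2 fold change 0.34, SE 0.04, edgeR adjusted p = 1.7e-10), Cdkn1a, the cell cycle inhibitor p21 (0.40, SE 0.05), Trp53 (0.18, SE 0.03) and Lin54 (0.13, SE 0.05), a DNA-binding subunit of the complex that holds MYBL2. The retinoblastoma family fell in all 3 members, Rb1 (−0.19, SE 0.05), Rbl1 (−0.30, SE 0.05) and Rbl2 (−0.24, SE 0.06), as did Lin37 (−0.33, SE 0.12), which is low at 9.44 ± 1.55 CPM in irradiated and 11.9 ± 0.656 CPM in control cells. The calls of Lin54 and Lin37 were lost under several alternatives, and those of the 3 retinoblastoma genes held, with the same sign, under each. E2f1 did not pass (−0.12, edgeR adjusted p = 0.066).

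Of 10 genes of end joining, the other route of break repair, 2 rose in irradiated against control cells, a share near the 22.1% of all tested genes called higher. Xrcc5, which encodes the Ku80 subunit that binds broken ends, had 51.0 ± 2.54 CPM in irradiated and 34.6 ± 0.866 CPM in control cells (SD, n = 3 each; log2 fold change 0.56, SE 0.06, edgeR adjusted p = 2.7e-10). Its partner Xrcc6, for Ku70, had a log2 fold change of −0.07 (adjusted p = 0.27). Dclre1c, the nuclease Artemis, rose by 0.36 (SE 0.06). With upper quartile scaling 4 of the 10 were called higher.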
